A study of Mus musculus with 42 samples.

Results

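The 10 genes described here are known members of the actin cytoskeleton and are textbook targets of serum response factor (SRF). They encode 2 cytoplasmic actins (Actb, Actg1) and smooth muscle actin (Acta2), the filament-binding proteins transgelin (Tagln), the calponins Cnn1 and Cnn2 and the tropomyosins Tpm1 and Tpm2, the regulatory myosin light chain Myl9, and vinculin (Vcl), which links actin filaments to adhesion sites. They were chosen by name and not by a rule on measured values, but with earlier results of these data known. All 10 were found among the 12365 genes of the RNA-seq tables and among the 13431 genes with at least 1 polyadenylation site (PAS) cluster, and they held 87 of the 60905 clusters that lay on a single gene.

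SRF binds a short A/T-rich element, the CArG box, in the promoters of its targets. It works with 2 families of coactivators: the myocardin-related transcription factors (MRTFs, encoded by Mkl1 and Mkl2), which are held back by actin monomers and freed when monomers join filaments, and the ternary complex factors (TCFs, such as Elk1, Elk3 and Elk4), which respond to MAP kinase signalling and drive immediate early genes such as Fos and Egr1. In muscle, the same factor serves contractile genes, and Tpm1 and Tpm2 are known to end at a different last exon in striated muscle than in other cells.

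The study asked how sodium arsenite, a strong stressor that blocks translation and gathers mRNAs in stress granules, affects the 3′ ends of mRNAs. PASs were counted by 3′READS, which sequences the ends of poly(A)+ RNA, in 38 libraries, and gene expression by RNA-seq in 4 libraries, all from 2 mouse cell lines labelled as strain C57BL/6 and carrying no named genetic change. In NIH3T3 fibroblasts, cells were untreated (NT) or given 250 µM arsenite for 1 h (AS), and some were then washed and harvested 4 h later (RC4), or after 8, 12 and 24 h (RC8, RC12 and RC24). C2C12 myoblasts were studied while proliferating (MB) and after differentiation to myotubes (MT).

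Total RNA of NIH3T3 cells gave 3 NT and 3 AS libraries (replicates 1, 2 and 4) and, within replicate 4, 1 library for each recovery time. RNA-seq had 1 library each of NT and AS and of RC4 with its own untreated control. Before harvest, other NIH3T3 cells received 50 µM 4-thiouridine (4sU) for 1 h, and the labelled, new RNA (4sU) and the unlabelled flow-through (Ft) were sequenced separately, with 1 library per fraction for NT, AS, RC4 and the control of RC4. The RNA bound to TIA1, a stress granule protein, was immunoprecipitated from cytoplasm of NT and AS cells, with the input alongside, in 2 libraries each. C2C12 cells gave 1 cytoplasmic library per state (MB, MT) for NT, AS, RC4 and the control of RC4, and 2 total RNA libraries per state (replicates 2 and 3), all untreated. Each line is 1 cell line, the study's text calls repeats biological replicates, and nothing in the labels says that they came from separate cultures, so p-values measure the spread between these libraries.

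The 3′READS libraries held 1048335 to 6974664 reads (median 2874186), of which 83.61% to 93.63% lay on genes, and the RNA-seq libraries 17137579 to 25194062. Levels are given as normalised RPM, which relates the reads of a gene to all reads on genes after median-ratio scaling within a set of libraries, and are compared only within a set. A position with fewer than 5 reads in a library was never listed, so a gene without a value is called not listed. The line labels were checked against marker genes. The 7 myotube markers summed to 228 and 209 RPM in the MB total libraries (3 of 7 listed) and to 26156 and 24701 RPM in the MT total libraries (7 of 7), whereas no NIH3T3 3′READS library exceeded 10.1 RPM. In NIH3T3 RNA-seq, however, the myotube markers summed to 107 to 159 RPM. Of the 4 myoblast markers, Cdh15 and Pax7 were listed in no C2C12 library. The list summed to 31.7 and 36.0 RPM in MB total and 64.1 and 61.2 RPM in MT total, so it did not mark MB. The summed level of the 5 fibroblast markers was not higher in NIH3T3 either, though these sums come from sets scaled separately. The markers summed to 8497 and 8688 RPM in MB total and to 5941, 2826 and 1860 RPM in NT total of NIH3T3. Of the 5, however, Thy1 was listed in every NIH3T3 library and in no C2C12 library. All libraries are from bulk cells, in which fewer cells of a type and less RNA per cell cannot be told apart.

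A CArG box lay between 250 bases before and 50 bases after the annotated start in 4 of the 8 members with an entry in the RefSeq promoter table (GRCm38.p6), or 50.0%, against 1.63% of all 32851 such windows. Among related lists the box was found in 2 of 5 genes of SRF and its coactivators, in 3 of 12 other MRTF targets and in 0 of 13 genes of actin monomer binding. Both strands were searched. The windows below carry the box in capitals and are shown because the members were grouped as SRF targets. Only the exact form shown was counted, with CC, a run of A or T alone and GG. A match describes these letters only. Its absence in Acta2, Cnn1, Tpm1 and Tpm2 says nothing about boxes that deviate from this form, also within the window, or about more distant sequence. The Actg1 box began 90 bases before the gene start (chr11:120348566-120348595, minus strand), the Cnn2 box 56 bases before (chr10:79988534-79988563, plus), the Myl9 box 161 bases before (chr2:156775293-156775322, plus) and the Vcl box 227 bases before (chr14:20929161-20929190, plus).
Actg1 promoter: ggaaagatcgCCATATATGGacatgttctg
Cnn2 promoter: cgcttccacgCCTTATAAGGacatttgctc
Myl9 promoter: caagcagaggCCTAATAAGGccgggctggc
Vcl promoter: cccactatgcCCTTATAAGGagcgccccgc

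Sites of 3′ end formation were read from the deposited PAS positions on mm9. For 4 members almost every read came from 1 PAS, which held 99.8% of Actb reads, 99.6% of Myl9 reads, 99.3% of Vcl reads and 100% of Cnn1 reads over the 38 libraries. In Acta2, 93.2% of reads ended 432 nt before its most distal annotated end, where a further 4.77% lay. The Cnn1 PAS likewise lay 903 nt before its annotated end, and the main Cnn2 PAS, with 75.9% of reads, 672 nt before. The tropomyosins used PASs in 2 alternative last exons. The 30-nt stretches ending at the PAS are shown for 5 tropomyosin PASs, because their ends changed most between conditions, with those of the 2 most abundant actins beside them. Capitals mark the polyadenylation signal AATAAA, which lay within 40 nt before 36.8% of all 60905 clusters. The main Tpm1 PAS, at position 66870397 of the distal last exon with 68.7% of the gene's reads, is not shown. It also has an AATAAA, which began 31 nt before it. All of these genes lie on the minus strand, and the windows are chr4:43527583-43527612 and chr4:43528554-43528583 for Tpm2, chr9:66875699-66875728, chr9:66875781-66875810 and chr9:66871086-66871115 for Tpm1, chr5:143664796-143664825 for Actb and chr19:34316012-34316041 for Acta2.
Tpm2, distal last exon: cctcgggccAATAAActgatgttactggca
Tpm2, upstream last exon: ctacttAATAAActctgaacttggtctcca
Tpm1, upstream last exon, first window: ctcAATAAAactacacttctgcttcgtgca
Tpm1, upstream last exon, second window: cgcccagtgtaaAATAAAcactgtacgcta
Tpm1, distal last exon, proximal PAS with no AATAAA: tttgtctttaaacacatgcttaccgtgaaa
Actb, main PAS: AATAAAagtgcacaccttaccttacacaaa
Acta2, main PAS: aaaAATAAAtcagacatgtgctacccttaa

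Steady-state levels set the scale for what follows. Per coding length in untreated NIH3T3 RNA-seq, the order was Actg1 (2093 normalised RPKM), Acta2 (1324), Actb (1033), Tpm1 (986), Cnn2 (749), Tagln (396), Tpm2 (302), Vcl (98.9), Myl9 (69.5) and Cnn1 (0.561), so 9 members stood among the upper 1623 of 11347 genes and Cnn1 ranked 9904. This is 1 library, without replicates, and reads of the near-identical actin coding sequences may be split uncertainly between Actb, Actg1 and Acta2. In 3′READS, Actg1 (315 reads) and Tagln (372) had few reads over all 38 libraries, unlike in RNA-seq, and with Cnn1 they were not listed in the untreated time course library, in which Actb reached 15410 RPM, Tpm1 1050 RPM and Acta2 784 RPM. The other 7 members had reads in every 3′READS library. For Actg1 and Tagln the 2 assays therefore disagree about abundance, and 3′READS ratios of these genes rest on few reads.

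The largest and best replicated differences were between the C2C12 states. In total RNA, 6 of 9 members tested were lower in MT than in MB and 2 were higher, where 29.5% and 32.6% of all 10040 genes tested were. Cytoplasmic and smooth muscle actin, both calponins and Myl9 fell, and the tropomyosins rose. Vcl showed no such difference. Tagln, with 14 reads in a single MB library and none listed in the others, was not tested.

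Among the actins, Actb gave 12516 and 10533 RPM in the 2 MB libraries and 2326 and 2186 RPM in the 2 MT libraries. Both MT values lay far under both MB values, a log2 fold change of -2.35 (SE 0.097, edgeR quasi-likelihood test with Benjamini-Hochberg adjustment, adjusted p = 7.23e-12). Acta2, the actin of smooth muscle and of activated fibroblasts, gave 6319 and 5752 RPM in MB and 3122 and 3423 RPM in MT, so that it passed Actb in MT. Its groups did not overlap, with a log2 fold change of -0.88 (SE 0.0877, edgeR adjusted p = 3e-07). Actg1 had 11 and 17 reads in MB and 6 and 0 in MT, and its call (log2 -2.18, SE 0.780, edgeR adjusted p = 0.0238) rested on these few reads. Leaving out MT replicate 3 gave -1.09 with an adjusted p of 0.348, and leaving out MB replicate 3 gave an adjusted p of 0.142.

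Of the calponins, which bind filaments and inhibit actomyosin, Cnn1 had 218 and 253 RPM in MB and 27.2 and 29.5 RPM in MT. This was the largest fall of any member (log2 -3.05, SE 0.137, edgeR adjusted p = 1.94e-11). Cnn2, the more widely expressed calponin, had 46.5 and 52.3 RPM in MB and 12.8 and 12.4 RPM in MT (log2 -1.98, SE 0.189, edgeR adjusted p = 1.91e-07). Myl9, a light chain of smooth muscle and nonmuscle myosin, had 321 and 302 RPM in MB and 79.4 and 80.8 RPM in MT (log2 -1.96, SE 0.108, edgeR adjusted p = 2.49e-10). In all 3 genes the MT libraries lay close together and well apart from MB.

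The tropomyosins, which lie along the filament and set access for myosin, went the other way. Tpm2 had 1249 and 1194 RPM in MB and 2579 and 2467 RPM in MT (log2 1.05, SE 0.0857, edgeR adjusted p = 3.01e-08). Tpm1 had 1639 and 1700 RPM in MB and 2466 and 2410 RPM in MT (log2 0.55, SE 0.0837, edgeR adjusted p = 3.38e-05). The Tpm1 rise held for the gene as a whole only, since counting the PASs of the 3′-most exon alone turned it into a fall (log2 -1.57). Vcl, with 861 and 782 RPM in MB and 831 and 833 RPM in MT, had MT values between the MB values (log2 0.02, SE 0.0903, edgeR adjusted p = 0.863). The plot of C2C12 total RNA levels shows these members side by side.

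**Figure D1:**
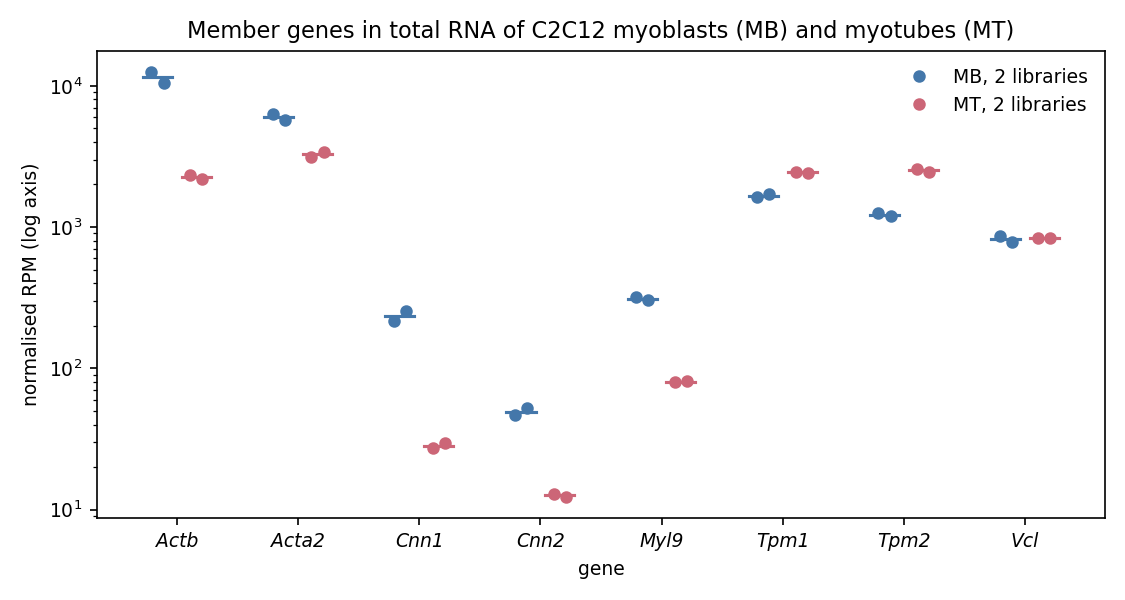
Normalised RPM (log axis) of members in total RNA of C2C12 cells, with a point for each of the 2 MB and 2 MT libraries. Actb, Acta2, Cnn1, Cnn2 and Myl9 lie lower in both MT libraries, Tpm1 and Tpm2 lie higher, and the Vcl points overlap.

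The tropomyosin rise came with a change of last exon. In Tpm1 the upstream last exon (chr9:66875699-66875974, minus strand, last exon of transcripts Tpm1-003 and Tpm1-014) took 2.15% and 1.87% of the gene's reads in MB total RNA and 75.3% and 79.5% in MT, or 2.01% ± 0.20 and 77.4% ± 2.93 (mean ± SD, n = 2 each). Reads at this exon went from 35.3 and 31.8 RPM to 1858 and 1915 RPM, while those of the distal exon went from 1604 and 1668 RPM down to 608 and 494 RPM. So the 2 ends of the gene moved in opposite directions. In Tpm2 the upstream last exon (chr4:43528554-43528713, minus strand, transcript Tpm2-005) took 0.238% and 0.682% in MB and 50.9% and 52.3% in MT, going from 2.97 and 8.15 RPM to 1313 and 1291 RPM. Its distal exon (chr4:43527583-43527733) had 1246 and 1186 RPM in MB and 1266 and 1176 RPM in MT, values that overlapped.

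The ratio of distal to proximal PAS use was tested with limma on log2 ratios. Tpm2 shifted by -7.99 toward its proximal PAS (SE 0.325, limma adjusted p = 7.35e-10), since the annotation also holds a longer exon that spans both of its PASs and so places them in 1 last exon. With the 2 most abundant PASs taken anywhere in the gene, Tpm1 shifted by -7.26 (SE 0.231, limma adjusted p = 2.98e-11). Within the distal exon of Tpm1 itself the shift was small, -0.75 between its distal and proximal PAS (SE 0.201, limma adjusted p = 0.024). Actb shifted by -0.59 (SE 0.182, limma adjusted p = 0.0422). Its pair was the main PAS, which held 99.8% of its reads over all libraries, and a rare site. In all, 3 of 5 members tested shifted toward the proximal PAS, where 4.12% of 3131 genes did. The Tpm1 and Actb calls each depended on single libraries, with adjusted p from 0.113 to 0.186 for Tpm1 and from 0.116 to 0.46 for Actb without those libraries (MT replicate 2, MT replicate 3 and, for Tpm1, MB replicate 3 or, for Actb, MB replicate 2). Cnn2 (-0.60, limma adjusted p = 0.402) and Acta2 (-0.06, limma adjusted p = 0.87) did not pass.

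Cytoplasmic libraries of the same line and states, which had not entered the test above, showed the same exons in use. The Tpm1 upstream exon took 3.39%, 5.51%, 2.40% and 3.31% of reads in MB (NT, the later NT control, AS and RC4) and 54.9%, 55.4%, 59.9% and 47.5% in MT. For Tpm2 the share ran from 0.564% to 1.21% in MB and was 58.8%, 55.9%, 49.0% and 49.3% in MT. No MB library came near an MT library in either gene, and no treatment closed the gap. In the 26 NIH3T3 3′READS libraries the share was 0% to 8.88% for Tpm1 (median 1.68%) and 0% to 1.64% for Tpm2 (median 0%), so that none reached the lowest MT value.

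**Figure D2:**
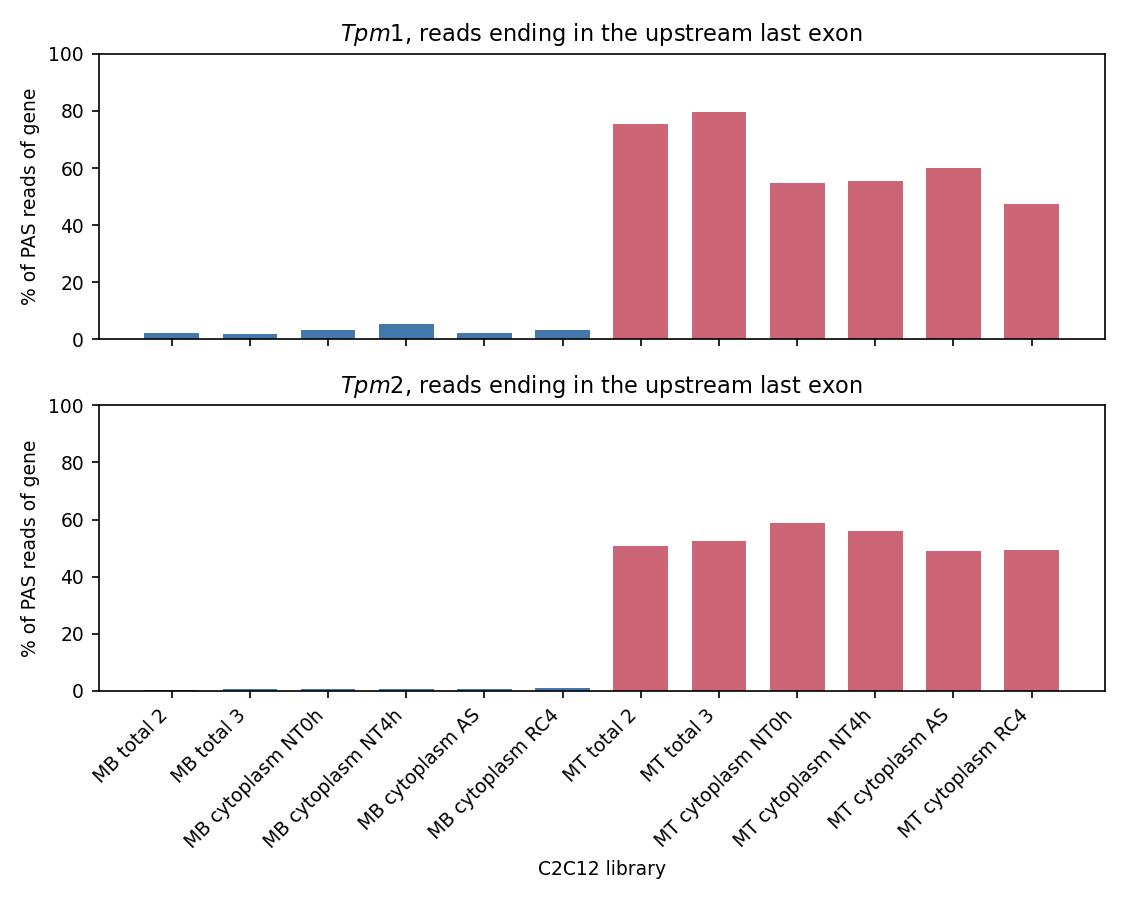
Share of a gene's PAS reads (percent) that end in the upstream last exon of Tpm1 and Tpm2, one bar per C2C12 library. The MB bars stay at 5.51% or less and the MT bars at 47.5% or more.

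Levels in the cytoplasm were compared over 4 pairs of MT and MB libraries, 1 pair per treatment, in a fit with the treatment as a term. Of the 10 members, 4 were lower in MT and 1 was higher, against 16.4% and 21.8% of 8698 genes. Actb ran from 8464 to 11782 RPM in MB and from 2551 to 4676 RPM in MT (log2 -1.42, SE 0.187, edgeR adjusted p = 2e-04). The 4 MB and 4 MT values did not overlap, and the untreated pairs differed more (-1.73 and -1.65) than the AS pair (-1.04) and the RC4 pair (-1.24). Cnn1 ran from 334 to 771 RPM in MB and from 72.0 to 106 RPM in MT (log2 -2.57, SE 0.197, edgeR adjusted p = 5.49e-06). Acta2 ran from 6254 to 9198 RPM in MB and from 4261 to 5748 RPM in MT (log2 -0.69, SE 0.178, edgeR adjusted p = 0.011), again without overlap.

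Tpm2 ran from 1312 to 1750 RPM in MB and from 2719 to 3233 RPM in MT, higher in all 4 pairs (log2 0.96, SE 0.165, edgeR adjusted p = 0.00108). Myl9 was lower in MT (log2 -0.60, SE 0.1995, edgeR adjusted p = 0.0346), its highest MT value (708 RPM) lying just under its lowest MB value (737 RPM), but the call was lost without 6 of the 8 libraries in turn (edgeR adjusted p from 0.0636 to 0.142 without the NT, AS or RC4 library of either state) and in the untreated libraries alone (0.403). Tpm1 was not called (0.38, edgeR adjusted p = 0.24): MT exceeded MB in the untreated pairs by 0.69 and 1.18 and lay under it in the AS and RC4 pairs by values of -0.24 and -0.09. Vcl (0.58, edgeR adjusted p = 0.0531), Cnn2 (-0.58, 0.119), Tagln (-0.67, 0.335) and Actg1 (-0.89, 0.407) did not pass either.

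Other genes of the actin and SRF systems were read from fixed lists in the total RNA libraries, with edgeR calls in MT against MB. Of 7 genes of SRF and its coactivators, 1 was higher (Elk1, 0.62) and 5 were lower, among them the TCF Elk3 (-2.16), the SRF-binding Fhl2 (-0.83) and the MRTF Mkl2 (-0.83). Of 16 other MRTF targets, 4 were higher, led by Ankrd1 (2.51), and 8 lower, among them Ctgf (-2.38), which encodes a secreted matrix-associated protein, and Tgfb1i1 (-1.30). Of 6 TCF targets, 5 were higher (Egr3 1.30, Fos 1.17, Ier2 0.94) and Egr2 was lower (-2.12). Thus neither the MRTF targets nor the members moved in 1 direction.

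The actin machinery proper was likewise mixed. Among 12 genes of monomer binding and filament turnover, 4 were higher, with the thymosins Tmsb10 (1.46) and Tmsb4x (0.93) and the muscle cofilin Cfl2 (1.10), and 7 were lower, with the nonmuscle cofilin Cfl1 (-1.83), its cofactor Wdr1 (-1.52) and destrin, Dstn (-1.23). Of 13 nucleation genes 1 was higher (Wasl, 0.54) and 4 were lower, with the formin Diap3 at -2.50 and the Arp2/3 subunit Arpc5 at -1.74. Of 13 crosslinking and adhesion genes 5 were higher and 6 lower, with the muscle filamin Flnc at 2.26 and ezrin, Ezr, at -1.39. Of 10 contractility genes 4 were higher (Mylk 2.95, Tpm3 2.65, Rhob 1.92) and 2 lower (Tpm4 -1.20, Myh10 -1.03), so 3 of the 4 tropomyosin genes rose. Of 9 muscle actins and relatives of the calponins, 6 were higher, with Actc1, the cardiac actin, going from not listed to a mean of 2256 RPM and skeletal actin, Acta1, from 83.8 and 79.4 RPM to 6379 and 6420 RPM, and 2 were lower, Actg2 (-1.88) and Tagln2 (-1.34). All 7 myotube markers rose, 2 of 4 fibroblast markers rose and 1 fell (Col1a1 3.06, Col1a2 1.54, Vim -2.08), and Myod1 rose by 2.16. The part of these marker changes in the member values was not tested.

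Arsenite for 1 h left the members of NIH3T3 cells with no change that passed a test. In total RNA, 0 of 7 members and 0.0% of 9054 genes were called (edgeR quasi-likelihood test with Benjamini-Hochberg adjustment). At an unadjusted p under 0.05 there were 0 members and 19 genes, and DESeq2 also called none. The untreated replicates themselves differed by more than any treatment. Actb had 1108, 2518 and 15410 RPM in NT replicates 1, 2 and 4 and 1162, 2422 and 16062 RPM in the AS libraries of the same numbers, and Vcl had 57.6, 32.5 and 291 RPM in NT and 53.3, 34.1 and 244 RPM in AS. Each AS library thus lay next to the NT library of its own number.

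With the replicate number as a block, which this pattern calls for, 29 genes were called, among them the stress genes Hmox1 (2.49) and Dnajb1 (2.64), but still 0 of 7 members. The blocked differences were 0.03 for Actb (SE 0.115), 0.14 for Acta2 (SE 0.138, edgeR adjusted p = 0.914) and 0.53 for Myl9 (SE 0.280, edgeR adjusted p = 0.772). Myl9, at 9.1, 13.1 and 16.2 RPM in NT and 10.8, 21.2 and 24.0 RPM in AS, was higher in 3 of 3 pairs on few reads. Cytoplasmic input RNA gave 0 of 9 members called in AS against NT by edgeR (0.0105% of 9530 genes). At an unadjusted p under 0.05 there were 0 members and 151 genes, and DESeq2 called 0 members and 18 genes.

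RNA-seq and the labelled fractions had 1 library per condition, so they allow no test. A gene is there said to be past 2-fold when the log2 ratio exceeds 1 in size, intervals are exact 95% intervals for counting error only, and ratios are given for genes with more than 5 reads. In RNA-seq, 1 of 10 members was past 2-fold after AS (4.73% of 10830 genes), Cnn1 with 11 reads in NT and 26 in AS. The others ran from -0.08 (Tpm2) to 0.37 (Vcl), with Actb at -0.03 and Acta2 at 0.01. In the same libraries, 6 of 7 TCF targets were past 2-fold higher (Egr2 3.70, Fos 3.05, Egr1 2.97), 3 of 15 other MRTF targets were (Filip1l 1.46, Ankrd1 1.24, Ctgf 1.02), and Srf itself stood at 0.52, beside 3.19 for Hmox1 and 5.62 for Hspa1a.

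In the 4sU fraction Acta2 went from 955 RPM in NT to 2044 RPM in AS, a log2 ratio of 1.10 (interval 1.02 to 1.17), the only 1 of 7 members past 2-fold (6.05% of 9268 genes). Actb (0.56), Vcl (0.49), Tpm1 (0.48) and Cnn2 (0.41) were also above 0, Myl9 was at 0.08 and Tpm2 at -0.21. With scaling to library totals Acta2 came to 0.93, under 2-fold. The fraction held 6 of 8 TCF targets past 2-fold higher (Egr1 6.13, Fos 5.36), 1 of 16 other MRTF targets (Cyr61), Srf at 0.81 and the smooth muscle actin Actg2 at 1.53. In old RNA (Ft) 0 of 8 members were past 2-fold (8.44% of 9247 genes), Acta2 lying at 0.09 and Actb at -0.34.

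At 4 h of recovery several members were lower in RNA-seq and in the 4sU and Ft fractions. Both fractions of a condition came from the same RNA preparation, so they are not independent repeats. In the 4sU fraction 3 of 8 members were past 2-fold lower than the untreated control (12.7% of 9887 genes): Myl9 went from 51.0 to 10.8 RPM (log2 -2.24), Acta2 from 808 to 218 RPM (-1.89) and Cnn2 from 91.0 to 29.0 RPM (-1.65). The same 3 genes of 9 were past 2-fold lower in Ft (11.5% of 9014 genes), Myl9 from 98.1 to 17.6 RPM (-2.48), Acta2 from 2483 to 891 RPM (-1.48) and Cnn2 from 98.7 to 47.0 RPM (-1.07). Against the mean of both untreated Ft libraries Cnn2 came to -0.90, under 2-fold. Tpm1 (-0.86 in 4sU, -0.81 in Ft) and Vcl (-0.83 and -0.79) were lower within 2-fold. Tpm2 (-0.53 and 0.06) and Actb (-0.37 and 0.08) differed between the fractions.

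RNA-seq of total RNA at RC4 had 1 of 10 members past 2-fold lower, Acta2 (1686 to 676 RPM, log2 -1.32, interval -1.35 to -1.29), where 14.8% of 10830 genes were. Tpm1 (-0.91), Myl9 (-0.64), Actb (-0.61), Actg1 (-0.60), Cnn2 (-0.42), Vcl (-0.39), Tpm2 (-0.37) and Tagln (-0.21) were lower by less, and Cnn1 rose in reads from 10 to 27 (1.68). The member median was -0.51 against -0.01 for all genes. The scaling changed this count, since with library totals the median of all genes moved to -0.81 and 9 of 10 members were past 2-fold lower, as were 41.5% of genes, with Acta2 at -2.12 and Tagln at -1.01.

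**Figure D3:**
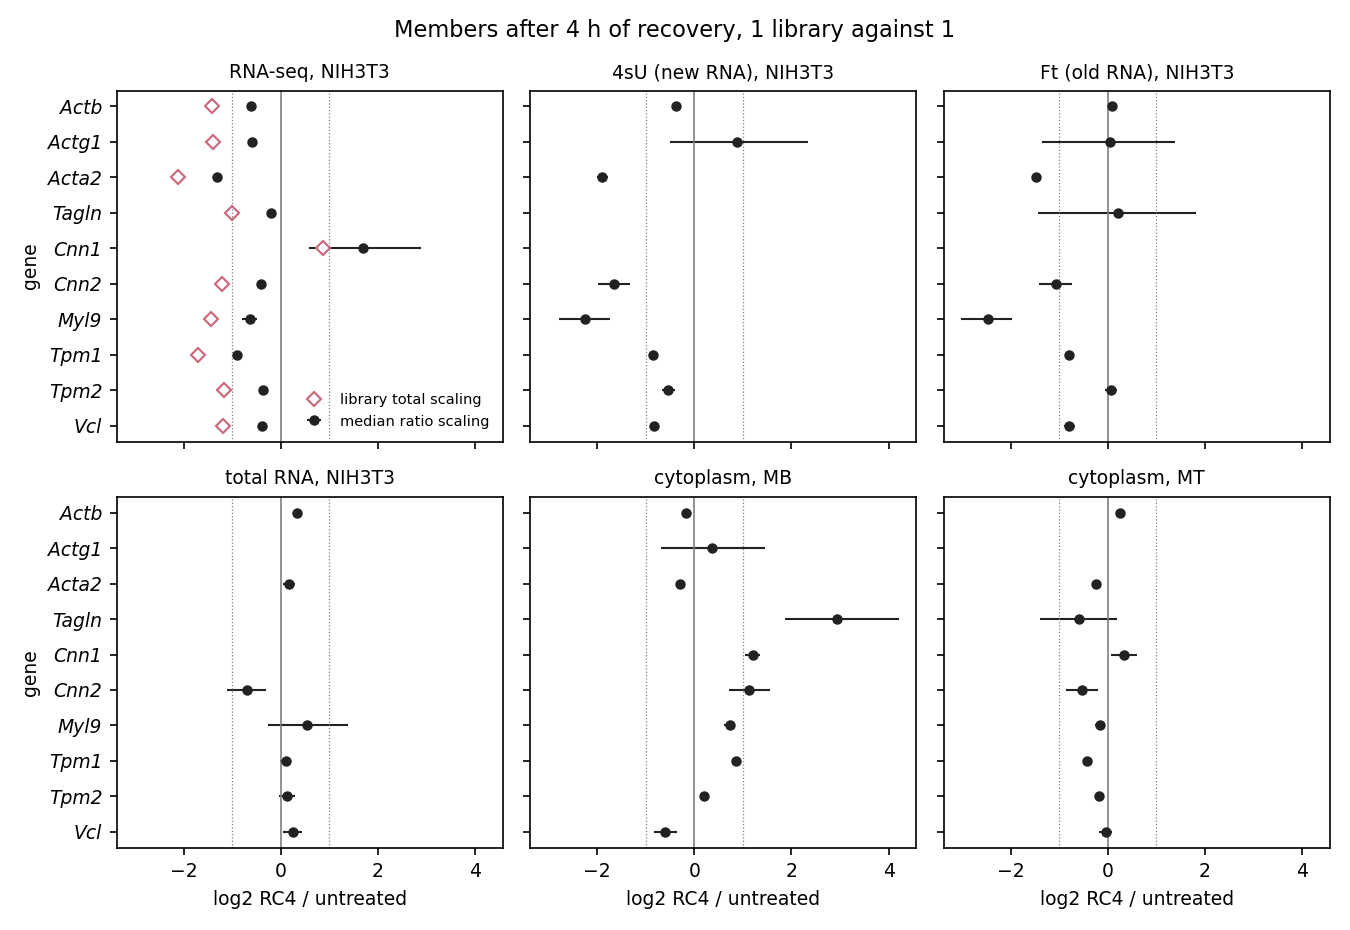
Log2 ratio of RC4 to its untreated library for members in each data set, with 95% counting intervals and dotted lines at 2-fold; open diamonds in the RNA-seq panel give scaling to library totals. Acta2 lies at -1.32 in RNA-seq, -1.89 in 4sU and -1.48 in Ft, but at 0.16 in the time course.

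The other lists at RC4 were mixed. In RNA-seq, where 15.4% of genes were past 2-fold higher, 6 of 15 other MRTF targets were past 2-fold higher (Tuft1 2.07, Thbs1 1.59, Ankrd1 1.39) and 1 lower (Flna -1.11), and 4 of 13 crosslinking genes were higher (among them Flnc 3.02, Ezr 1.43 and Pxn 1.42). With library totals, by which 5.21% of genes were past 2-fold higher, 1 MRTF target (Tuft1) was higher and 3 were lower, and 2 crosslinking genes were higher and 3 lower. In 4sU, no other MRTF target was past 2-fold higher and 3 of 16 were lower (Fhl1 -2.83, Thbs1 -1.95, Tgfb1i1 -1.32). Srf was lower in both fractions (-1.58 in 4sU, -1.57 in Ft), Mkl1 was higher (1.13 and 1.16), and the smooth muscle actin Actg2 was lower with Acta2 (-2.24 and -2.40). Thbs1 thus had opposite signs in RNA-seq and in the 4sU fraction, which came from different replicate sets.

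The 3′READS time course gave another picture of RC4. Acta2 had 784 RPM in NT, 957 after AS and 879, 519, 467 and 506 RPM at RC4, RC8, RC12 and RC24. Its log2 ratios were 0.29, 0.16, -0.60, -0.75 and -0.63, so that it was lower from RC8 on and not at RC4. Actb stayed within 0.33 of its NT level at every time (0.06, 0.33, -0.04, 0.07 and 0.00), Tpm1 ran from -0.43 to 0.14 and Tpm2 from -0.35 to 0.13. Cnn2 was lowest at RC4 (-0.71, from 140 to 91 reads). No member of the 7 was past 2-fold at any time, where 6.91%, 19.5%, 9.63%, 6.14% and 4.84% of genes were at AS, RC4, RC8, RC12 and RC24. Myl9 had only 17 to 41 reads per library, so its intervals were wide. At RC4 its ratio was 0.54 (interval -0.27 to 1.39), against -2.24 in 4sU and -2.48 in Ft. Vcl stood at 0.24 at RC4 (interval 0.05 to 0.44), against -0.83 and -0.79 in the fractions. The time course used 1 NT library as reference, and with the mean of the 3 NT libraries Actb came out 1.34 above NT after AS and 1.24 to 1.61 above it during recovery, as the NT replicates differ.

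**Figure D4:**
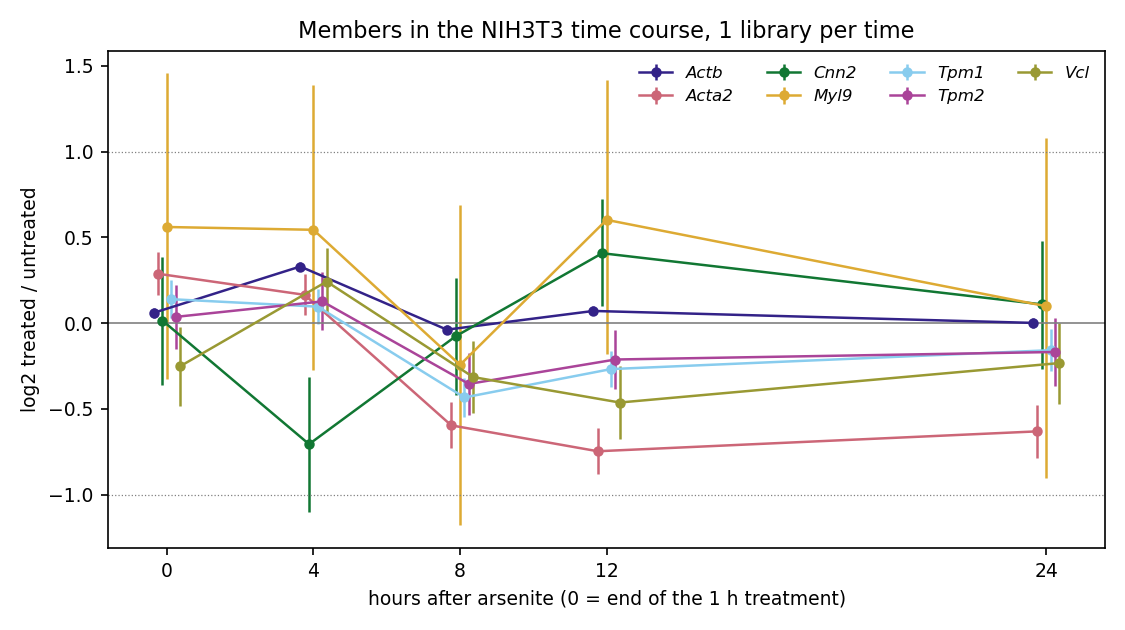
Log2 ratio to the untreated replicate 4 library for 7 members after arsenite (AS) and at 4, 8, 12 and 24 h of recovery, with 95% counting intervals. Acta2 goes from 0.29 after AS to -0.75 at RC12 and Actb stays between -0.04 and 0.33.

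In C2C12 cytoplasm no member passed 2-fold directly after arsenite. With AS 0 of 10 members were past 2-fold in MB (7.48% of 8302 genes) and 0 of 10 in MT (9.45% of 9187 genes). Vcl was the highest in MB (0.92, from 237 to 447 RPM), and Actb (0.87, from 2551 to 4676 RPM) and Vcl (0.79, from 273 to 473 RPM) in MT. Taking both states as a pair, DESeq2 called 0 members and 75 genes in AS against NT. In edgeR 0 of 10 members were called (0.23% of 8698 genes). Vcl was nearest (0.87, edgeR adjusted p = 0.503) and the 1 member with an unadjusted p under 0.05, as 618 genes had. By contrast the TCF targets Fos (5.30), Ier2 (2.74) and Junb (1.66) were called, 3 of 7 on their list.

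At RC4, 3 of 10 members were past 2-fold higher in MB (11.3% of 7549 genes). These were Tagln (8 to 60 reads, log2 2.93), Cnn1 (507 to 1148 reads, 1.21) and Cnn2 (47.5 to 104 RPM, 1.13), but Tagln and Cnn2 were also past 2-fold lower in the RC4 control than in the earlier NT library. Against the mean of both NT libraries Cnn2 came to 0.27. In MT 0 of 9 were past 2-fold (16.2% of 8997 genes), from 0.34 (Cnn1) to -0.59 (Tagln). Over both states DESeq2 called 0 members and 582 genes, and edgeR called 0 of 10 members (5.64% of 8698 genes). Cnn1 was nearest (0.77, edgeR adjusted p = 0.127) and the 1 member with an unadjusted p under 0.05, as 1805 genes had. Srf was called lower (-1.05), Fos (4.38) and Flnc (1.34) higher. Acta2, past 2-fold lower at RC4 in the NIH3T3 fractions, stood at -0.29 in MB and -0.24 in MT.

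Old and new RNA of NIH3T3 cells were compared over 4 pairs of Ft and 4sU libraries, 1 pair per condition. Of 8 members, 5 were higher in Ft than in 4sU, where 24.7% of 9487 genes were. Acta2 had 2497, 2483, 2662 and 891 RPM in Ft and 955, 808, 2044 and 218 RPM in 4sU (NT, its later control, AS, RC4), higher in 4 of 4 pairs (log2 1.36, SE 0.244, edgeR adjusted p = 0.000873). The ratio of fractions was lowest in the AS pair (0.38) and highest in the RC4 pair (2.03). Actb had the same order with lower values (-0.22 in the AS pair, 1.37 in the RC4 pair, log2 0.69 over the 4 pairs, SE 0.235, edgeR adjusted p = 0.0291).

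Tpm2 was higher in Ft in every pair by 0.60 to 1.35 (0.85 over the 4 pairs, SE 0.170, edgeR adjusted p = 0.00173), Myl9 by 0.41 to 0.94 (0.65, SE 0.168, edgeR adjusted p = 0.00744) and Tpm1 by 0.18 to 0.69 (0.53, SE 0.159, edgeR adjusted p = 0.016). Vcl did not differ beyond its spread (-0.01, edgeR adjusted p = 0.964), nor did Cnn2 (0.18, 0.404) or Actg1 (0.51, 0.537). Acta2 and Tpm2 kept their calls without any single library. Actb lost its call without any of the NT or RC4 libraries or their controls (adjusted p from 0.0697 to 0.138), Tpm1 without any NT library or control (0.0894 to 0.117) and Myl9 without either library of the later control (0.0771 and 0.0816). A fit without the condition term called none of the 8. The number of uridines in a transcript affects its capture and was not adjusted for.

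Related lists were read from the same fit. In Ft, 8 of 12 genes of monomer binding (Gsn 1.75, Tmsb4x 1.24, Tmsb10 1.09) and 7 of 13 of crosslinking (Ilk 1.36) were called higher and none lower. Of 8 TCF targets 6 were lower in Ft (Fos -1.78, Egr3 -1.68, Egr2 -1.52) and none higher, where 28.6% of all genes were lower, and of 16 other MRTF targets 4 were higher (Zyx 0.94) and 7 lower (Cyr61 -1.90, Filip1l -1.76, Thbs1 -1.58). The remaining actin lists were mixed, with 4 higher and 3 lower of 13 nucleation genes, 4 and 4 of 10 contractility genes, and 1 and 2 of 7 genes of SRF and its coactivators.

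Binding to TIA1 was read as the ratio of immunoprecipitate to input. Input and immunoprecipitate of a number and treatment came from the same lysate, so the values with the number as a block are given beside those without it. The block was a single term for NT and AS libraries of a number. It thus did not model each lysate apart and assumed that NT and AS of a number belong together. In NT cells, 1 of 9 members was lower in the immunoprecipitate without the block (1.69% of 9530 genes) and 3 of 9 with it (9.73%), and none was higher. In AS cells the edgeR counts were 0 (0.735%) and 3 (8.48%). Without the block 1 member and 1847 of 9530 genes had an unadjusted p under 0.05, and DESeq2 called 1 member and 1072 genes. The 3 members were Tpm2, Acta2 and Actb in both conditions.

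Tpm2 had 441 and 389 RPM in NT input and 116 and 57.5 RPM in NT immunoprecipitate, and 583 and 337 RPM against 105 and 86.8 RPM in AS. It was lower in 4 of 4 pairs, with a log2 difference of -2.26 in NT (SE 0.471, edgeR adjusted p = 0.0414) or -2.33 with the block (SE 0.311, edgeR adjusted p = 0.00129), and in AS of -2.26 (edgeR adjusted p = 0.0558) or -2.21 with the block (edgeR adjusted p = 0.00176). Without the block the NT call was lost when any 1 of the NT libraries or of the AS immunoprecipitates was left out (adjusted p from 0.0523 to 0.192). With the block it stayed in each of these cases.

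Acta2 had 2678 and 335 RPM in NT input and 862 and 146 RPM in the immunoprecipitate, and 2992 and 507 RPM against 784 and 207 RPM in AS. Its level differed greatly between replicates 1 and 2, but the paired differences were -1.64 and -1.20 in NT and -1.93 and -1.29 in AS (blocked -1.44, SE 0.296, edgeR adjusted p = 0.00729 in NT, and -1.58, adjusted p = 0.00591 in AS). Actb behaved in the same way, with paired differences of -1.23, -1.14, -1.48 and -0.80 (blocked -1.18, SE 0.254, edgeR adjusted p = 0.00886 in NT, and -1.14, adjusted p = 0.0129 in AS). With the block, Acta2 lost its NT call without input replicate 1 (0.0685), and in AS Actb lost it without replicate 1 of the input (0.142) or immunoprecipitate (0.122) and Acta2 without replicate 1 of the immunoprecipitate (0.0736).

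Vcl was the one member above input in every pair (0.73, 0.55, 0.21 and 0.25), with 15.9 and 17.3 RPM in NT input and 26.3 and 25.3 RPM in the immunoprecipitate, and did not pass (blocked NT 0.64, edgeR adjusted p = 0.37). Tpm1 lay under input in every pair (-0.62, -0.48, -0.85 and -0.39). The difference between AS and NT in TIA1 binding passed for 0 of 9 members and 0.0% of 9530 genes in edgeR with the block, although 421 genes had an unadjusted p under 0.05, none of them members, and DESeq2 called 5 genes and no member. On the SRF list 4 of 7 genes were higher than input in NT cells with the block (Elk4 3.09, Elk1 2.85, Mkl2 1.87) and 1 was lower (Mkl1 -1.61), and 3 of 13 genes of monomer binding were lower (Tmsb4x -3.09, Dstn -2.69, Tmsb10 -1.71). The share of all genes called higher is not given here, so the count of higher genes cannot be set against it.

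**Figure D5:**
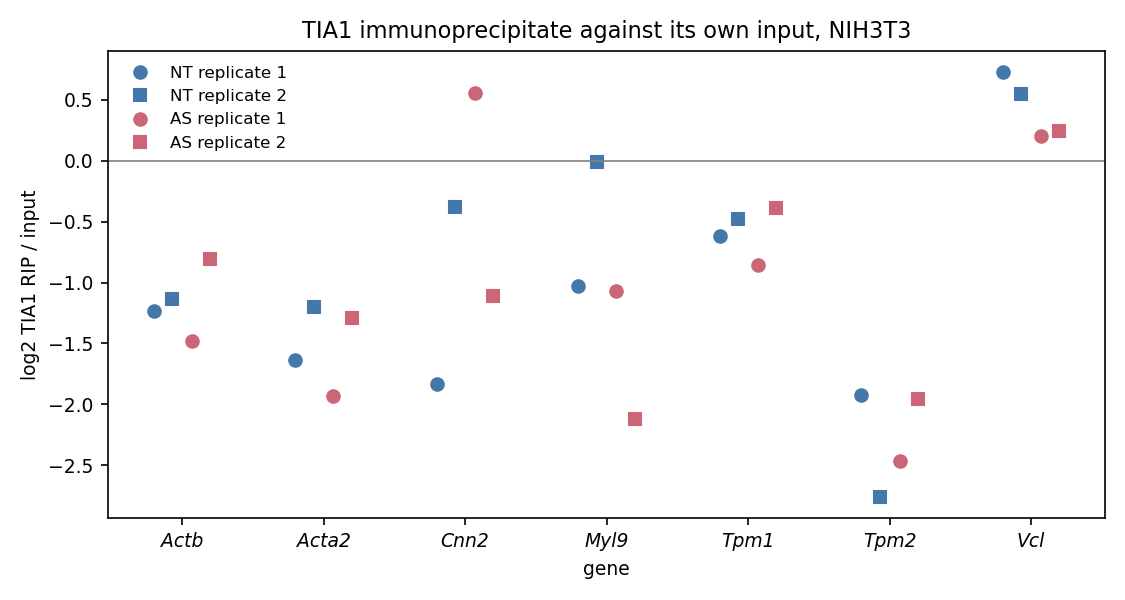
Log2 ratio of TIA1 immunoprecipitate to input for 7 members, one point per replicate pair in NT and AS cells. Tpm2 (-1.92 to -2.76), Acta2 (-1.20 to -1.93) and Actb (-0.80 to -1.48) lie under 0 in all 4 pairs and Vcl above 0 in all 4.

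A last measure concerned the 2 PASs within the distal last exon of Tpm1. The proximal of these, at position 66871086, has no AATAAA in its window and took 8.78% of Tpm1 reads in the untreated control of the 4sU fraction (95% Wilson interval 8.01% to 9.62%) and 19.9% at RC4 (18.3% to 21.5%). In Ft it went from 9.53% to 25.2% (23.4% to 27.1%), and in the time course from 14.4% in NT to 21.0% at RC4 (19.1% to 23.0%), 17.6% at RC8, 15.2% at RC12 and 9.35% at RC24. In C2C12 cytoplasm it went from 4.28% to 7.16% in MB and from 1.60% to 4.56% in MT. The share was higher at RC4 in each of these 5 comparisons of single libraries, which allow no test. The 4sU and Ft pairs came from the same cells. The study reports 3′UTR shortening across many genes at RC4 in NIH3T3, MB and MT. How the Tpm1 shift compares with that of other genes was not tested. In the replicated comparison of AS with NT the shift between the 2 PASs was 0.12 for Tpm1, the 1 member tested, and did not pass (0 of 1 member, 0.0% of 1582 genes). Between immunoprecipitate and input it was 1.01 and did not pass (limma adjusted p = 0.256, 0 of 1 member, 6.43% of 1416 genes).

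Over all 38 3′READS libraries, members fell into more than 1 pattern. Acta2 was most like Myl9 (Pearson r of log2 normalised RPM 0.937, rank 1 among 8058 genes), followed by Taf12 (0.901), Wdr1 (0.900), Apol10b (0.880) and Timp1 (0.876), and Tpm2 ranked 24 (0.818), Cnn1 88 and Tpm1 114. Actb was most like Ddx39 (0.889), Umps, Cct3, Mcm6 (0.860) and Nop58 (0.853), with Cnn2 at rank 66 (0.732), and its correlation with Acta2 was 0.37. These values are descriptions, since libraries of a set share cells and processing.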

How the data were processed

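The authors deposited raw counts: PAS read counts per genomic position for each 3′READS library and read counts per gene for each RNA-seq library (counts, not normalised), made per the labels and the study's methods with cutadapt, Bowtie2 and STAR on mm9 (1 library per file, nothing pooled, PAS reads with nongenomic T residues only). PAS positions within 24 nt on a strand were joined, and each of 83916 clusters was given to a gene (NCBIM37 annotation) when it lay within the gene or up to 4 kb downstream and before the next gene; 1282 clusters on 2 or more genes were left out. RNA-seq counts cover coding sequence, hence levels per coding length.

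Gene counts were tested with edgeR 4.0.16 (quasi-likelihood, median-ratio scaling, filterByExpr, Benjamini-Hochberg over all genes tested, threshold 0.05) and PAS use with limma 3.58.1 on log2 ratios with a pseudocount of 0.5 and more than 5 reads of each PAS per library. Alternatives were TMM, library totals, DESeq2 1.42.0, no filter, other PAS rules, a replicate block and leaving out each library. Scripts were tested on simulated data. Single libraries were compared by ratio with intervals for counting error only. Groups came from the labels. The replicate number paired NT with AS total RNA (deviations of same-numbered libraries correlated at 0.85, 0.85 and 0.778) and, by the study's methods, input with immunoprecipitate (0.307 and 0.34). In the immunoprecipitation fit the block was shared by NT and AS libraries of a number, whose inputs correlated at 0.471.

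The members, the gene lists and the tests were chosen with earlier results of these data known. Named are all members, up to 3 called genes per list and direction, the 5 nearest genes to Actb and Acta2, PASs holding at least 5% of a member's reads in a data set, and control genes; genes named from single-library comparisons were chosen after their values were seen. Some items are not reported here.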

Additional observations from a re-analysis of the deposited data

Results flagged for a closer look

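Members that moved in opposite directions in paired sets of single libraries, each beyond its 95% counting interval, are given here; the differences were not tested. After AS, cytoplasmic RNA of MB and MT gave log2 ratios of 0.56 and -0.04 for Acta2 (difference 0.60), 0.24 and -0.48 for Myl9 (0.72) and 0.38 and -0.54 for Tpm1 (0.93). At RC4 the ratios in MB and MT were 1.13 and -0.53 for Cnn2 (difference 1.66), 0.86 and -0.42 for Tpm1 (1.28), 0.72 and -0.17 for Myl9 (0.90), 0.20 and -0.17 for Tpm2 (0.37) and -0.16 and 0.25 for Actb (difference -0.42). In NIH3T3 cells the 4sU and Ft fractions gave 0.56 and -0.34 for Actb after AS (difference 0.90), 0.49 and -0.32 for Vcl after AS (0.81) and -0.37 and 0.08 for Actb at RC4 (difference -0.45). The untreated libraries of these sets themselves differed: the later NT control against NT gave -0.75 in 4sU, -0.51 in Ft, 0.48 in MB and 0.55 in MT for Actb, -1.40 in MB for Cnn2, and -0.36 in MB for Tpm1, as large as or larger than several of the values above. Acta2 at RC4 was not of this kind in the fractions. Like Myl9 and Vcl, it was lower in RNA-seq and both fractions but not in the time course, as given above.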

How the results depend on the processing

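Of 22 called member values, 269 of the re-fits kept direction and call, 43 lost the call and 1 reversed: Tpm1 in MT against MB total RNA, -1.57 with PASs of the 3′-most exon only. For TIA1 against input without pairing, 1 member in NT became 0 with library totals and 2 without a filter (0 to 1 leaving out a library), and 0 in AS became 1 with DESeq2 and 2 without a filter (0 to 1). With the replicate block both counts were 3, also with TMM (3) and library totals (3), and 2 to 3 in NT and 1 to 4 in AS leaving out a library. The block with other scalings or fewer libraries, and gene list counts with library totals, were added after seeing the data. MB and MT total libraries share only a number (correlation 0.051); the block there called 7 of 9 members, losing Actg1 (adjusted p = 0.0589, edgeR), and the block changed no call in the other comparisons. Ft against 4sU (5 called) gave 0 without the condition term and 2 to 5 leaving out a library. A group left with 1 library was assumed to vary like the others. PAS use in MT against MB (3 called) gave 1 with over 20 reads per PAS and 1 to 3 leaving out a library.

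Counts past 2-fold moved with the scaling. With library totals they were 0 in RNA-seq AS (from 1), 9 in RNA-seq RC4 (from 2), 0 in 4sU AS (from 1), 5 in 4sU RC4 and 5 in Ft RC4 (from 3 each) and 1 in MB RC4 (from 3), 20 in all against 13. The median of all genes then moved to -0.81, -0.32 and -0.41 in the 3 NIH3T3 RC4 sets and -0.33 in MB RC4. Of all genes, 4499 of 10830 were then past 2-fold lower in RNA-seq RC4, 2103 of 9887 in 4sU RC4 and 2245 of 9014 in Ft RC4. In MB RC4, 446 of 7549 genes were higher and 1587 lower. At 1.5-fold they were 6 in RNA-seq RC4, 6 in 4sU RC4, 5 in Ft RC4, 6 in MB RC4, 2 in MB AS, 2 in MT AS, 1 in MT RC4 and 1, 1, 2 and 1 in the time course at RC4, RC8, RC12 and RC24, 35 in all. Of all genes, 2839 were higher and 2824 lower of 10830 in RNA-seq RC4, and 2361 and 2391 of 9887 in 4sU RC4. In Ft RC4 these were 2425 and 2065 of 9014, and in MB RC4 1786 and 1712 of 7549. In AS they were 1110 and 938 of 8302 in MB and 1348 and 1335 of 9187 in MT. MT RC4 had 1515 and 1657 of 8997. The time course had 1734 and 1680 of 8183 at RC4 and 1200 and 1198 of 8359 at RC8. At RC12 it had 843 and 933 of 8393 and at RC24 797 and 697 of 7976. Against the mean of untreated libraries the time course gave 1, 2, 1, 2 and 2 at AS, RC4, RC8, RC12 and RC24 and MB AS 1, 21 in all, and with 3′-most exon PASs MB AS gave 1. By that mean 818 of 7986, 1281 of 8183, 862 of 8359, 761 of 8393 and 754 of 7976 genes were higher in the time course. In MB AS, 490 of 8302 genes were then higher and 286 lower. With 3′-most exon PASs, 319 of 7734 genes were higher in MB AS and 245 lower. The cause of these shifts was not tested. Read number limits most the 3′READS ratios of Actg1 (315 reads in 38 libraries) and Tagln (372).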
